A study of Mus musculus with 16 samples.

Results

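MHC class I and class II antigen presentation was followed through 10 genes in 16 mouse liver samples. The 10 were listed by name and matched to the gene identifiers of the count files through a GRCm38 annotation, out of 55471 genes counted. Class I was represented by the heavy chains H2-K1 and H2-D1, their light chain B2m, the peptide transporter subunit Tap1 and the immunoproteasome subunit Psmb8. Class II was represented by the chains H2-Aa, H2-Ab1 and H2-Eb1, the invariant chain Cd74 and the transactivator Ciita.

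Total RNA of frozen liver portions was sequenced, with 4 samples in each of 4 groups. Mice aged 102 weeks that had been given antibiotics formed the groups Aged_PAM_I (PAM I) and Aged_PAM_II (PAM II), mice of the same age without antibiotics formed Aged_no_ABX (aged controls), and mice of 12 weeks without antibiotics formed Young_adults (young). Exposure took place early in life according to the title of the series. The drugs, doses, strain and sex are not stated in the sources used here, and a free-text field describes the 12-week samples as aged, against their age, title and group fields, which were followed. No label says whether samples of a group were separate animals or shared a litter or cage, so each p-value measures only the spread between these samples.

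Class I molecules present peptides made inside the cell to CD8+ T cells. The proteasome cuts the peptides, the TAP transporter carries them into the endoplasmic reticulum, and nearly all nucleated cells, hepatocytes included, carry the finished complex. Class II molecules present peptides from material taken up by the cell to CD4+ T cells, and in liver they are carried mainly by Kupffer cells, dendritic cells, B cells and some endothelial cells. CIITA switches the class II genes on, CD74 guides the chains to the endosome, and NLRC5 has a role for class I like that of CIITA for class II.

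Promoter sequences are shown first because class I and class II genes share a short module of X and Y boxes, which brings them under related control. RefSeq windows on GRCm38.p6, reaching from 250 bases before to 50 bases after a transcript start, were at hand for 7 of the 10 genes, all except H2-Ab1, Cd74 and Ciita. They were searched on both strands for TGANG (part of the X box region) followed 18 to 22 bases later by ATTGG (the Y box, an inverted CCAAT box). The pair was present in 5 of the 7 genes and in 472 of all 32851 windows (1.44%), and ATTGG alone was present in 37.4% of windows. The range of spacings was chosen after the windows of these genes had been seen, so the share describes them and tests nothing. Capitals mark the motifs in the stretches below, which are given 5′ to 3′ on the strand of the gene.
H2-K1, chr17:34000351-34000414, minus strand: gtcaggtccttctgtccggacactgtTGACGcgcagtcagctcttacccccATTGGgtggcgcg
H2-D1, chr17:35262967-35263030, plus strand: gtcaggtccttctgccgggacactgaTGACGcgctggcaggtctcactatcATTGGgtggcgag
B2m, chr2:122147583-122147646, plus strand: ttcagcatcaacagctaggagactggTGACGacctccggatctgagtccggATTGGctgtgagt
H2-Aa, chr17:34287859-34287923, minus strand: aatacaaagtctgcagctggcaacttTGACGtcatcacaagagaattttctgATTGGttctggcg
H2-Eb1, chr17:34305758-34305820, plus strand: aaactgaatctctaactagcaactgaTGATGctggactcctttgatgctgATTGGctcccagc

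The spacing between the motifs was 20 bases in H2-K1, H2-D1 and B2m, 21 in H2-Aa and 19 in H2-Eb1. The windows of Tap1 and Psmb8 did not hold the pair in these letters. A short form of the interferon-stimulated response element (GAAA, 2 bases of any kind, GAAA) was present in the window of B2m alone among the 7, and in 3.44% of all windows. A match is a run of letters, and no factor binding was measured in these livers.

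On GRCm38 the 2 heavy chain genes lie on chromosome 17, H2-K1 (ENSMUSG00000061232) at 33996017-34000347 and H2-D1 (ENSMUSG00000073411) at 35262730-35267499. Tap1 (34187553-34197225), Psmb8 (34197721-34201454), H2-Ab1 (34257689-34269419), H2-Aa (34282744-34287823) and H2-Eb1 (34305867-34316674) lie between them. B2m is on chromosome 2 (122147686-122153083), Ciita on chromosome 16 (10480059-10528418) and Cd74 on chromosome 18 (60803848-60812652). Genes of the opposite strand overlap 5 of the 10. The largest partners were Dexi, with 19279 fragments against 2820 of Ciita over the 16 libraries, and Psmb9, with 15171 against 27627 of Tap1. The counting used strand, so these overlaps are counted apart. H2-K1 and H2-D1 are near-identical over long stretches with each other and with other class I genes, and the header lists no option for reads with several matches, so single heavy chain values are uncertain.

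The class I chains were more abundant than the class II chains. On the TPM scale, which allows for gene length and library size, the median over the 16 livers was 5296 for B2m, 1265 for H2-K1 and 652 for H2-D1. The class II side followed with Cd74 at 211, H2-Eb1 at 53.7, H2-Ab1 at 44.1 and H2-Aa at 36.8 TPM. Psmb8 (22.1 TPM) and Tap1 (15.8 TPM) were lower, and the regulator Ciita was lowest at 0.900 TPM. All 10 genes passed the filter on low counts.

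All levels given from here on are CPM, fragments scaled to library size by TMM, which compare 1 gene between livers. Class II transcripts varied far more between livers than class I transcripts. The highest liver stood above the lowest by a factor of 13.2 for H2-Eb1, 12.4 for H2-Aa, 10.8 for Cd74, 10.7 for Ciita and 8.53 for H2-Ab1. For H2-K1 that factor was 1.54, for B2m 1.73, for Tap1 2.32, for H2-D1 2.38 and for Psmb8 2.60. Within the 12 aged livers alone it ran from 3.99 for H2-Ab1 to 5.87 for Cd74 in class II. In class I it ran there from 1.42 for H2-K1 to 2.60 for Psmb8.

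**Figure D1:**
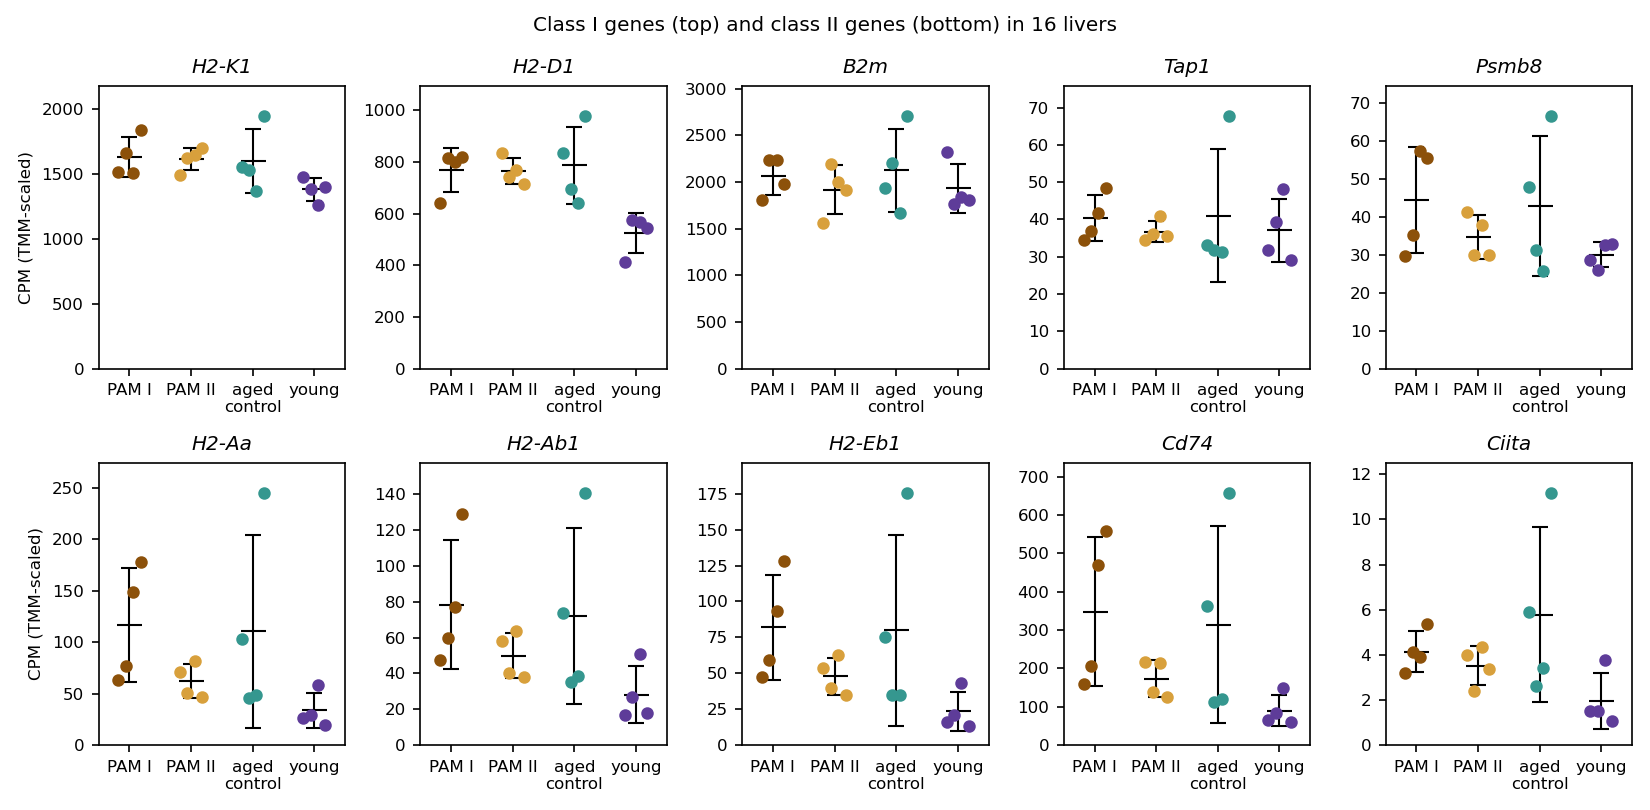
CPM (TMM-scaled, linear axes from 0) of the 10 genes in each liver, as points in replicate order, with group mean and SD (n = 4) as bars, for PAM I, PAM II, aged control and young livers. H2-D1 lay at 641 to 977 CPM in the 12 aged livers and at 411 to 576 CPM in young livers, and aged control replicate 4 was the highest liver for every gene.

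Depth lay between 36968993 and 52090914 fragments assigned to genes per library, with 44532527 to 48706530 in PAM I livers, 41233838 to 52090914 in PAM II, 39856490 to 47042924 in aged controls and 36968993 to 42733282 in young livers. Of 17046 genes tested with edgeR's quasi-likelihood test on all 16 libraries, 8.22% passed at an adjusted p under 0.05 between PAM I and young livers, 5.19% between PAM II and young and 3.23% between aged control and young. None passed between the aged groups. Aged control replicate 4, PAM II replicate 1 and young replicate 1 stood apart, with limma quality weights of 0.289, 0.36 and 0.24, where the other 13 had 0.704 to 2.94. Hepatocyte markers were high throughout (59950 to 118200 CPM summed over 8 genes), so the defining markers of the labelled tissue were present. The lowest sums were those of PAM I replicate 3 (59950 CPM) and aged control replicate 1 (76880 CPM). Log2 fold changes to young were negative for 7 of the 8 genes in PAM I, 6 in PAM II and 8 in aged controls. Serpina1c alone passed, at -1.01 in PAM I, -1.22 in PAM II and -0.98 in aged controls (edgeR adjusted p = 0.012, 0.0044 and 0.020). With 1 library left out it passed in 8 of 8 fits for PAM I and PAM II and 5 of 8 for aged controls.

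Among class I genes, H2-D1 was higher in aged than in young livers, while H2-K1, B2m, Tap1 and Psmb8 did not pass the test in any comparison. H2-D1, a heavy chain that presents peptides to CD8+ T cells, had 834, 697, 641 and 977 CPM in aged control livers, against 411, 576, 566 and 543 CPM in young livers. Every aged control liver was above every young liver, and the lowest young value was that of replicate 1. The log2 fold change was 0.59 ± 0.15 (SE, n = 4 each, edgeR adjusted p = 0.0419). It was the only one of the 10 genes that passed in this comparison, in which 1.92% of all genes passed as higher and 1.31% as lower. Without aged control replicate 4 its edgeR adjusted p was 0.113, and it passed in 3 of the 8 fits that left out 1 library. Without the filter on low counts, which leaves more genes to adjust over, none of the 10 genes passed in any comparison.

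H2-D1 also rose in both antibiotic groups relative to young livers. PAM I livers had 641, 814, 801.8 and 818.5 CPM, and PAM II livers had 836, 741, 767 and 716.5 CPM. Replicate 1 was the lowest PAM I liver, at a distance from the other 3, and still lay above every young liver. The log2 fold change to young was 0.55 ± 0.15 in PAM I (edgeR adjusted p = 0.0335) and 0.55 ± 0.15 in PAM II (edgeR adjusted p = 0.043). H2-D1 passed as higher where 4.83% of all genes did so for PAM I and 3.17% for PAM II, and 3.38% and 2.01% passed as lower. These comparisons share the young livers with the one above and are no separate evidence. With 1 library left out it passed in 2 of 8 fits for PAM I (highest adjusted p 0.0962, without PAM I replicate 4) and in 1 of 8 for PAM II (highest 0.112, without PAM II replicate 1).

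H2-K1, the other classical heavy chain, had 1515, 1660, 1507 and 1840 CPM in PAM I livers and 1495, 1624, 1648 and 1697 CPM in PAM II livers. Aged control livers had 1550, 1528, 1369 and 1944 CPM, and young livers had 1475, 1383, 1262 and 1399 CPM. Every liver of both antibiotic groups lay above every young liver, by small margins, while the aged control livers overlapped the young ones. Its log2 fold changes to young were 0.24 ± 0.12 in PAM I, 0.23 ± 0.12 in PAM II and 0.21 ± 0.12 in aged controls (edgeR adjusted p = 0.218, 0.277 and 0.36). Across all genes, livers did not overlap in the higher direction in 9.16% of genes for PAM I, 8.17% for PAM II and 4.83% for aged controls, each against young, and in the lower direction in 7.71%, 6.14% and 4.44%.

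B2m, the light chain of every class I molecule, had 1810, 2231, 2234 and 1979 CPM in PAM I, 1560, 2192, 2000 and 1913 in PAM II, 1930, 2200, 1664 and 2704 in aged controls, and 2325, 1759, 1842 and 1805 in young livers. The groups overlapped fully, and young replicate 1 held the most B2m and the least H2-D1 of its group. The log2 fold change of B2m between aged control and young livers was 0.14 ± 0.16 (edgeR adjusted p = 0.697). Tap1, which carries peptides into the endoplasmic reticulum, lay at 34.6 to 48.4 CPM in PAM I, 34.4 to 41.0 in PAM II, 31.3 to 67.7 in aged controls and 29.1 to 48.1 in young livers. Its log2 fold change between aged control and young livers was 0.14 ± 0.23 (edgeR adjusted p = 0.785). The 67.7 CPM belonged to aged control replicate 4, and the other 3 aged controls had 31.3 to 33.2 CPM.

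Psmb8, which replaces a catalytic subunit when the proteasome is remodelled under interferon-gamma, had 29.7, 35.1, 57.2 and 55.5 CPM in PAM I, 41.3, 29.9, 37.9 and 29.9 in PAM II, 47.9, 31.1, 25.6 and 66.5 in aged controls, and 28.5, 25.9, 32.6 and 32.8 in young livers. Aged groups reached higher but overlapped the young livers. Its log2 fold change to young was 0.57 ± 0.27 in PAM I (edgeR adjusted p = 0.185) and 0.51 ± 0.27 in aged controls (edgeR adjusted p = 0.308).

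The ratio of H2-D1 to H2-K1, which does not depend on library scaling, was computed within each liver after their values had been seen. It was 0.423, 0.491, 0.532 and 0.445 in PAM I, 0.559, 0.456, 0.466 and 0.422 in PAM II, 0.538, 0.456, 0.468 and 0.503 in aged controls, and 0.279, 0.416, 0.449 and 0.388 in young livers. Each aged control liver was above each young liver, while 2 PAM I livers and 1 PAM II liver were below the highest young liver. The log2 difference between aged control and young was 0.38, with an exact permutation p of 0.0286 (two-sided, 70 splits), the smallest that 4 against 4 can give. Adjusted over 12 such comparisons it was 0.171 and did not pass, and the difference was 0.23 without young replicate 1.

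Class II transcripts were on average more abundant in aged than in young livers, with a wide spread inside each aged group. Cd74, the invariant chain that escorts class II molecules, had 158, 207, 469 and 557 CPM in PAM I livers, 216, 138, 213 and 126 in PAM II livers, 362, 112, 121 and 658 in aged control livers, and 64.2, 84.8, 149 and 61.2 in young livers. PAM I replicates 3 and 4 and aged control replicates 1 and 4 were high, and young replicate 3 was the highest of its group. Every PAM I liver was above every young liver, while PAM II and aged control livers overlapped the young ones. The mean was 348 ± 195 in PAM I, 173 ± 48.1 in PAM II, 314 ± 257 in aged controls and 89.9 ± 41.0 CPM in young livers (SD, n = 4).

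The class II chains followed the same livers. H2-Aa, the alpha chain of the I-A molecule, had 63.0, 76.5, 148 and 178 CPM in PAM I, 71.1, 50.8, 81.3 and 46.9 in PAM II, 103, 45.2, 48.3 and 245 in aged controls, and 26.5, 29.6, 58.3 and 19.8 in young livers. H2-Ab1, its beta chain, had 47.3, 59.6, 77.4 and 129 CPM in PAM I, 57.9, 40.4, 63.5 and 37.8 in PAM II, 73.8, 35.3, 38.4 and 141 in aged controls, and 16.5, 26.8, 51.0 and 18 in young livers. H2-Eb1, the beta chain of the I-E molecule, had 47.3, 59.0, 93.6 and 128 CPM in PAM I, 54.0, 39.9, 62.7 and 34.8 in PAM II, 74.9, 34.6, 34.9 and 176 in aged controls, and 15.9, 21.02, 43.5 and 13.4 in young livers. In all 3 chains aged control replicate 4 and PAM I replicate 4 were the highest of the 16, and young replicates 1, 2 and 4 were the lowest 3. Young replicate 3 lay among the aged livers.

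Ciita, the regulator of class II genes, had 3.19, 4.11, 3.90 and 5.35 CPM in PAM I, 3.99, 2.38, 4.35 and 3.38 in PAM II, 5.91, 2.63, 3.42 and 11.2 in aged controls, and 1.496, 1.498, 3.79 and 1.05 in young livers. Young replicate 3, at 3.79 CPM, overlapped all 3 aged groups, and the other 3 young livers were below every aged liver. Between 304 fragments in the young group and 1066 in the aged controls stand behind these means.

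Between PAM I and young livers, Cd74, H2-Eb1 and H2-Aa rose. The log2 fold change was 1.95 ± 0.54 for Cd74 (edgeR adjusted p = 0.0392), 1.80 ± 0.51 for H2-Eb1 (edgeR adjusted p = 0.0413) and 1.79 ± 0.51 for H2-Aa (edgeR adjusted p = 0.0422). H2-Ab1 had 1.48 ± 0.46 (edgeR adjusted p = 0.0562) and Ciita 1.07 ± 0.44 (edgeR adjusted p = 0.129), so neither passed. With H2-D1 this made 4 of the 10 genes higher, where 4.83% of all genes passed as higher, and 5 of the 10 had no overlap between the groups, where 9.16% of all genes did. With 1 library left out, Cd74 passed in 3 of 8 fits (highest adjusted p 0.124), and H2-Aa and H2-Eb1 in 2 of 8 each (highest 0.132), with the highest values without PAM I replicate 4.

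Between aged control and young livers the class II fold changes were of like size, and none passed. Cd74 had 1.80 ± 0.54 (edgeR adjusted p = 0.0814), H2-Eb1 1.77 ± 0.51 (edgeR adjusted p = 0.0697), H2-Aa 1.72 ± 0.51 (edgeR adjusted p = 0.0776), Ciita 1.56 ± 0.44 (edgeR adjusted p = 0.0654) and H2-Ab1 1.36 ± 0.46 (edgeR adjusted p = 0.116). Without aged control replicate 4 these were between 0.81 for H2-Ab1 and 1.14 for Cd74. DESeq2 passed 6 of the 10 genes in this comparison and limma passed none.

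PAM II livers had smaller class II differences to young livers. Log2 fold changes were 1.03 ± 0.50 for H2-Eb1, 0.95 ± 0.53 for Cd74, 0.90 ± 0.50 for H2-Aa, 0.85 ± 0.44 for Ciita and 0.83 ± 0.45 for H2-Ab1 (edgeR adjusted p = 0.236 to 0.305). The order of the group means was PAM I, aged control, PAM II and young for all 4 of the chain and invariant chain genes, and aged control came first for Ciita. No neighbouring aged groups in that order differed at the threshold.

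**Figure D2:**
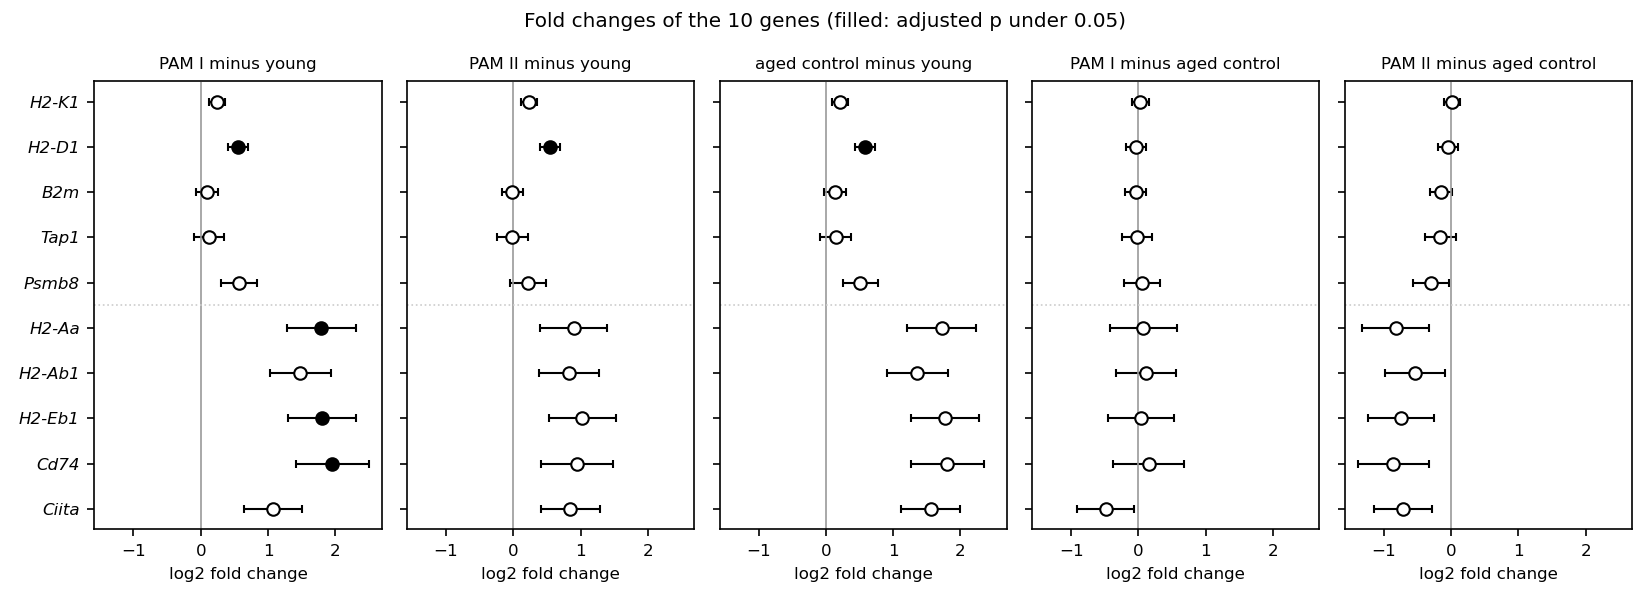
Log2 fold changes of the 10 genes with their SE from edgeR, n = 4 livers per group, for each aged group against young livers and for both antibiotic groups against aged controls. Filled points passed at an adjusted p under 0.05, namely H2-D1 in the 3 comparisons with young livers and Cd74, H2-Eb1 and H2-Aa in PAM I against young; no point is filled in the 2 panels on the right.

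None of the 10 genes passed between antibiotic-exposed and unexposed aged livers, the comparison that the title of the series points to. For PAM I against aged controls the log2 fold changes of class I genes lay between -0.04 and 0.05, and those of class II genes between -0.48 ± 0.43 for Ciita and 0.15 ± 0.52 for Cd74 (edgeR adjusted p = 0.747 to 0.99 over the 10 genes). The class II values turned on single livers: those of Cd74 and H2-Aa were 0.81 and 0.83 without aged control replicate 4, and -0.17 and -0.20 without PAM I replicate 4. For PAM II against aged controls they lay between -0.30 and 0.02 in class I. All 5 class II genes were negative there, from -0.53 ± 0.45 for H2-Ab1 to -0.86 ± 0.53 for Cd74 (edgeR adjusted p = 1). These values depend on aged control replicate 4. Without it they were -0.20 for Cd74, -0.18 for Ciita, -0.07 for H2-Aa, -0.01 for H2-Eb1 and 0.02 for H2-Ab1.

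For PAM II against PAM I the class II log2 fold changes were -1.01 ± 0.53 for Cd74, -0.90 ± 0.50 for H2-Aa, -0.78 ± 0.50 for H2-Eb1, -0.65 ± 0.45 for H2-Ab1 and -0.23 ± 0.43 for Ciita (edgeR adjusted p = 0.88 to 0.925). Without PAM I replicate 4 they were -0.69, -0.62, -0.48, -0.30 and -0.08, in the same order. In these 3 comparisons 0 of 17046 genes passed with edgeR, so the background share was 0%. At an unadjusted p under 0.05 there were 1602 genes for PAM I against aged controls, 465 for PAM II against aged controls and 778 for PAM II against PAM I. DESeq2 passed 15 genes for PAM I against aged controls and 0 in the other 2, and limma passed 0 in all 3. The livers of the aged groups overlapped for every one of the 10 genes. Over all genes there was no overlap in 3.07% as higher and 2.4% as lower for PAM I against aged controls, 0.81% and 1.29% for PAM II against aged controls, and 1.76% and 2.9% for PAM II against PAM I.

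The class II spread was wide between single livers of a group. Aged control replicate 4 was the highest of the 16 livers for all 10 genes, class I and class II alike. It shared the top 4 places of H2-Aa and H2-Eb1 with PAM I replicates 4 and 3 and aged control replicate 1. At the other end, young replicate 4 was lowest for 5 of the 10 genes, and young replicates 1, 2 and 4 held places 14 to 16 in all 5 class II genes. Cd74 tracked H2-Aa closely, at 2.43 to 3.51 times its CPM in all 16 livers, although both spanned more than 10-fold.

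**Figure D3:**
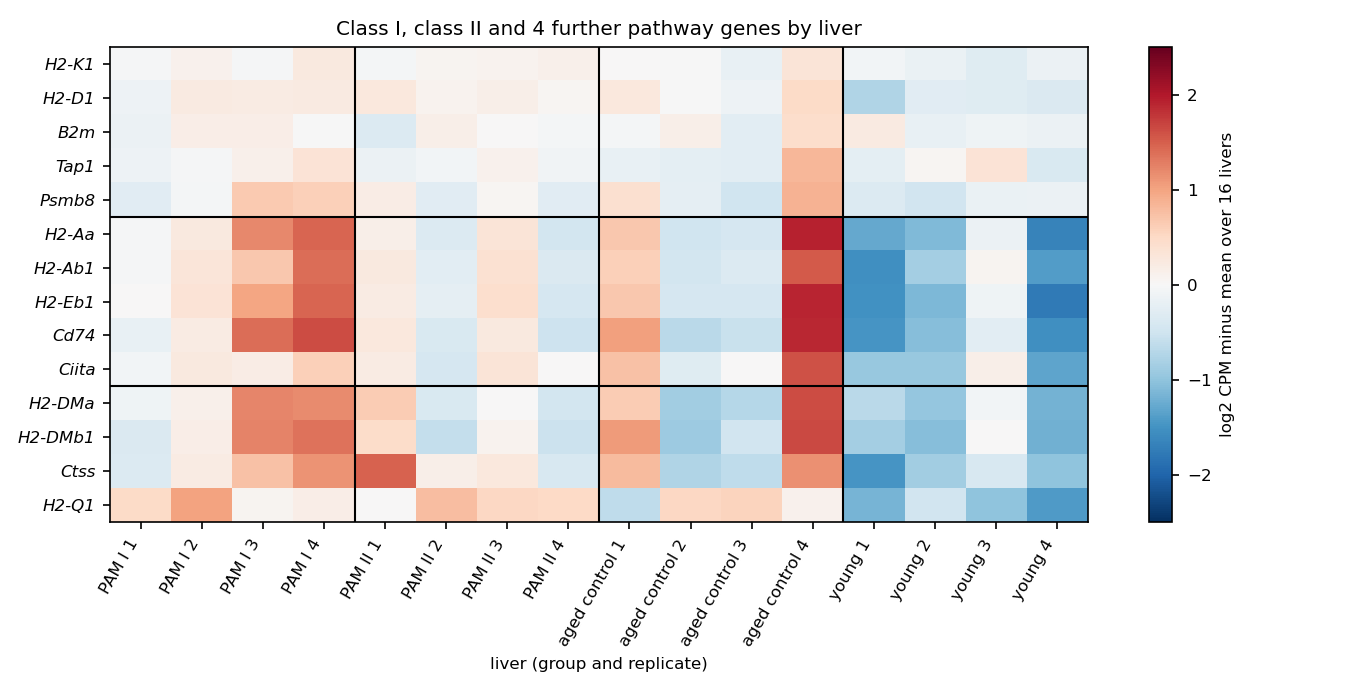
Log2 CPM minus the gene's mean over 16 livers (colour) for the 10 genes and for H2-DMa, H2-DMb1, Ctss and H2-Q1 (rows) in each liver (columns: PAM I, PAM II, aged control, young). The 5 class II rows lie above their mean (red) in aged control replicates 1 and 4 and PAM I replicates 3 and 4 and below it (blue) in young replicates 1, 2 and 4, while the class I rows vary less.

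Whole liver was sequenced, so a difference in the number of cells of a type and a difference in RNA per cell cannot be told apart. Summed transcripts of immune cell genes were also higher on average in the aged groups, although single genes went the other way. The log2 fold change to young was negative for 1 of 10 Kupffer cell genes in PAM I (-1.33). For dendritic cells it was negative for 1 of 9 genes in PAM I, 2 in PAM II and 1 in aged controls. For T and NK cells it was negative for 1 of 10 genes in PAM I and 2 in PAM II (down to -1.54). The summed CPM of 4 leukocyte genes (Ptprc, Coro1a, Laptm5 and Cd52) was 52.6 to 130 in PAM I livers, 50.9 to 175 in PAM II, 40.1 to 150 in aged controls and 28.4 to 44.8 in young livers, and no marker was at 0 in all libraries of a group. Of the 4, Cd52 alone passed, between PAM I and young livers, at 1.81 (edgeR adjusted p = 0.0369, 1 of 8 fits with 1 library left out). The summed CPM of 10 Kupffer cell genes was 330 to 1451 in PAM I livers, 417 to 1767 in PAM II, 238 to 837 in aged controls and 258 to 366 in young livers. Vsig4 rose between PAM I and young livers by 2.19 (edgeR adjusted p = 0.0346, 2 of 8 fits with 1 library left out). Between PAM II and young, Adgre1 rose by 1.995 (edgeR adjusted p = 0.0328, 3 of 8) and Cd5l by 1.71 (edgeR adjusted p = 0.0446, 2 of 8). With the leukocyte covariate Vsig4, Adgre1 and Cd5l did not pass. Vsig4 and Cd5l did not pass with limma either (limma adjusted p = 0.0795 and 0.0591). Dendritic cell genes summed to 16.4 to 20.9 in PAM I livers, 13.4 to 23.5 in PAM II, 13.4 to 42.3 in aged controls and 10.5 to 17.95 CPM in young livers. Of these 9 genes Itgax rose in all 3 aged groups, by 2.34 in PAM I, 2.08 in PAM II and 3.01 in aged controls (log2, edgeR adjusted p = 0.021, 0.0401 and 0.0101), and Zbtb46 fell in PAM I by 0.68 (edgeR adjusted p = 0.0221). With 1 library left out Itgax passed in 3 of 8 fits for PAM I, 2 of 8 for PAM II and 8 of 8 for aged controls, and with the leukocyte covariate in aged controls alone (edgeR adjusted p = 0.174, 0.162 and 0.0252). Zbtb46 passed in 4 of 8 such fits and did not pass with the leukocyte covariate (edgeR adjusted p = 0.0817). Among 8 genes of recruited macrophages, Gpnmb rose by 3.96, 3.99 and 3.92 and Mmp12 by 3.70, 3.45 and 3.57, in the same order (edgeR adjusted p = 0.00104 to 0.0145). With 1 library left out Gpnmb passed in 8 of 8 fits in each group, and Mmp12 in 8, 7 and 6 of 8. Mmp12 did not pass with limma in PAM II (limma adjusted p = 0.0602) or aged controls (0.119). Under the leukocyte covariate it passed in PAM II and aged controls but not in PAM I (edgeR adjusted p = 0.0542). Trem2 rose by 4.68 in PAM I (edgeR adjusted p = 0.00511, 8 of 8 fits) and by 3.435 in aged controls (edgeR adjusted p = 0.0322, 3 of 8). Cx3cr1 rose by 1.90 in PAM II (edgeR adjusted p = 0.0302, 2 of 8) and by 1.92 in aged controls (edgeR adjusted p = 0.0382, 3 of 8). Trem2 and Cx3cr1 did not pass in aged controls with limma (limma adjusted p = 0.2999 and 0.143). Neither passed in these comparisons with the leukocyte covariate (edgeR adjusted p = 0.0805 to 0.142). B cell genes summed to 13.5 to 45.2 in PAM I livers, 10.7 to 29.9 in PAM II, 7.76 to 35.4 in aged controls and 6.29 to 11.9 in young livers. Ms4a1 alone passed, between PAM I and young livers, at 1.80 (edgeR adjusted p = 0.0235, 4 of 8 fits with 1 library left out). With the leukocyte covariate Ms4a1 did not pass. T and NK cell genes, 10 in all, summed to 19.3 and 33.1 CPM in aged control replicates 1 and 4 and to 30.3 and 25.98 CPM in PAM I replicates 3 and 4, and to 2.87 to 9.64 CPM in the other 12 livers. Those 4 livers are the ones highest in H2-Aa, H2-Eb1 and Cd74. Of the 10 genes Cd8a rose, between PAM I and young livers, by 3.12 (edgeR adjusted p = 0.0242, 5 of 8 fits with 1 library left out). Cd8a did not pass with the leukocyte covariate (edgeR adjusted p = 0.329). Aged control replicate 4 had the highest dendritic cell sum of the 16 livers. Genes of sinusoidal endothelium, 7 in all, had lower mean sums in the aged groups than in young livers, least so in PAM II. They summed to 115 to 207 CPM in PAM I livers and 146 to 250 in PAM II. Aged controls had 112 to 187 CPM and young livers 201.5 to 231 CPM. Log2 fold changes to young were negative for 5 of the 7 in PAM I, 5 in PAM II and 6 in aged controls, with medians of -0.453, -0.026 and -0.498. Clec4g alone passed, in aged controls (-0.76, edgeR adjusted p = 0.043), and in 0 of 8 fits with 1 library left out.

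The leukocyte level of a liver was not independent of its group. Young livers reached at most 44.8 CPM of leukocyte genes, and no antibiotic liver had less than 50.9 CPM. Aged controls, from 40.1 CPM upwards, overlapped the young livers. A leukocyte covariate therefore cannot separate a leukocyte difference from one between aged and young livers, for these or other genes. With that level as a covariate, a setting added after seeing the data, none of the 10 genes passed in any comparison. The log2 fold change to young of Cd74 was then 0.23 in PAM I (edgeR adjusted p = 0.782), -0.34 in PAM II and 0.26 in aged controls, and that of H2-D1 was 0.23 in PAM I (edgeR adjusted p = 0.467), 0.27 in PAM II (edgeR adjusted p = 0.239) and 0.33 in aged controls (edgeR adjusted p = 0.17). Class II chains and Cd74 summed to 5.32 to 7.62 times the leukocyte sum in PAM I, 2.28 to 5.69 times in PAM II, 5.48 to 8.11 times in aged controls and 3.57 to 6.74 times in young livers. PAM II replicate 1 had the highest leukocyte sum (175 CPM) and Kupffer cell sum (1767 CPM) of all livers, yet a class II sum of 399 CPM, and so the lowest ratio. The log2 difference of the ratio was -0.65 between PAM II and aged controls and -0.62 between PAM II and PAM I (exact permutation p = 0.0571 each, two-sided, adjusted 0.171 over 12 comparisons), and neither passed. Without PAM II replicate 1 these were -0.37 and -0.33. The part of cell numbers in the class II differences was not tested.

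**Figure D4:**
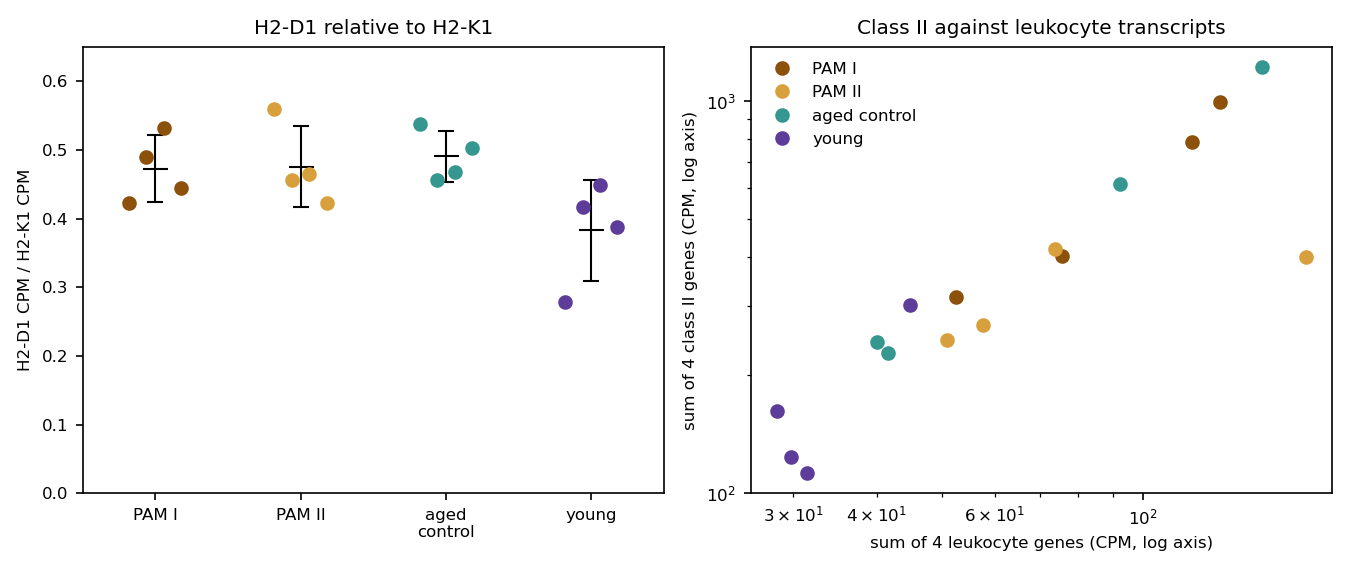
Left, CPM ratio of H2-D1 to H2-K1 per liver (points) with group mean and SD (n = 4). Right, summed CPM of H2-Aa, H2-Ab1, H2-Eb1 and Cd74 against summed CPM of 4 leukocyte genes per liver, both on log axes, coloured by group; PAM II replicate 1 lies to the right at 175 CPM of leukocyte genes and 399 CPM of class II.

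Skeletal muscle transcripts also differed between livers. Their sum over 8 genes was 1.47 to 38.2 CPM in PAM I, 1.27 to 97.1 in PAM II, 0.658 to 11.4 in aged controls and 1.05 to 99.7 in young livers. The aged livers with more than 10 CPM were PAM I replicates 1 and 2, PAM II replicates 2, 3 and 4 and aged control replicate 2, and their Cd74 lay at 158, 207, 138, 213, 126 and 112 CPM. The other aged livers held 0.658 to 1.83 CPM of muscle transcripts. Their Cd74 lay at 469 and 557 CPM in PAM I replicates 3 and 4 and at 216 CPM in PAM II replicate 1. In aged control replicates 1, 3 and 4 it was 362, 121 and 658 CPM, so the 2 sets of livers overlapped. With a muscle covariate, also added after seeing the data, H2-D1 passed against young livers in PAM I (edgeR adjusted p = 0.0266) and PAM II (edgeR adjusted p = 0.0173), and in aged controls it had 0.47 (edgeR adjusted p = 0.131). In PAM I against young, Cd74 (1.67, edgeR adjusted p = 0.0434) and H2-Eb1 (1.63, edgeR adjusted p = 0.043) passed with it and H2-Aa did not (1.58, edgeR adjusted p = 0.0506). Its part in the results was not tested.

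Beyond the 10, a list of 70 further genes of antigen presentation held 65 that were tested. Of these, 6 rose between PAM I and young livers, 2 between PAM II and young and 2 between aged control and young, and none fell, where 4.83%, 3.17% and 1.92% of all genes passed as higher. For PAM II and for aged controls, 2 of 65 is near the share of all genes. None of the 65 passed between the aged groups, where 0% of all genes passed. Their median log2 fold change was 0.31 for PAM I, 0.25 for PAM II and 0.29 for aged controls, each against young, where the median of all genes was -0.02, -0.02 and -0.01. The medians of the 5 class I members were 0.24, 0.22 and 0.21, and those of the 5 class II members 1.79, 0.90 and 1.72, in the same order.

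Among heavy chains, H2-Q1, a gene of the Qa region, had a smaller adjusted p than any of the 10 genes in each comparison with young livers. It had 42.5, 61.1, 31.5 and 33.7 CPM in PAM I livers, 30.5, 52.0, 43.1 and 42.8 in PAM II, 19.2, 43.6, 44.4 and 32.6 in aged controls, and 13.3, 21.6, 14.7 and 11.02 in young livers. Every antibiotic liver was above every young liver, and aged control replicate 1 was below young replicate 2. The log2 fold change to young was 1.48 ± 0.28 in PAM I (edgeR adjusted p = 0.00733), 1.47 ± 0.28 in PAM II (edgeR adjusted p = 0.00774) and 1.20 ± 0.28 in aged controls (edgeR adjusted p = 0.0308). It passed in 8 of 8 fits with 1 library left out for each antibiotic group and in 2 of 8 for aged controls. With the leukocyte covariate H2-Q1 passed in all 3, at 1.96 in PAM I (edgeR adjusted p = 0.00303), 1.88 in PAM II (edgeR adjusted p = 0.00213) and 1.56 in aged controls (edgeR adjusted p = 0.00653). As one of a close family, it may share reads with its neighbours.

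H2-M2, a nonclassical heavy chain gene, rose by 3.29 ± 0.74 between PAM I and young livers (edgeR adjusted p = 0.0164) and by 2.95 ± 0.74 between aged control and young livers (edgeR adjusted p = 0.0418). It stood at 0.954 to 1.90 CPM in PAM I, 0.172 to 1.04 in PAM II, 0.480 to 2.29 in aged controls and 0 to 0.267 in young livers, so its values rest on few fragments, 20 in all young livers. H2-Q10, a secreted class I molecule made by the liver, had 1852 to 3088 CPM over the 16 livers and did not pass in any comparison. Tapbpl and Tap2 came first by p among peptide-loading genes between aged control and young livers, at 0.30 ± 0.12 (edgeR adjusted p = 0.162) and 0.32 ± 0.17 (edgeR adjusted p = 0.335). Psmb9, a partner of Psmb8, had 0.43 ± 0.28 (edgeR adjusted p = 0.424). None of 8 peptide-loading genes and 5 immunoproteasome genes passed in any comparison, which is near the background, since at most 8.22% of all genes did.

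On the class II side H2-Oa, part of a modulator of peptide loading in B cells, rose between PAM I and young livers by 1.96 ± 0.53 (edgeR adjusted p = 0.036), at 0.727 to 2.68 CPM in PAM I and 0.215 to 0.534 CPM in young livers. March1, a ubiquitin ligase that removes class II molecules from the cell surface, rose by 1.59 ± 0.43 in PAM I (edgeR adjusted p = 0.034) and by 1.61 ± 0.43 in PAM II (edgeR adjusted p = 0.0388), and had 1.39 ± 0.42 in aged controls (edgeR adjusted p = 0.0868). The lysosomal proteases Ctsd and Ctsb rose between PAM I and young livers by 0.55 ± 0.13 (edgeR adjusted p = 0.0221) and 0.54 ± 0.13 (edgeR adjusted p = 0.0263). Ctss, which trims the invariant chain, had 1.27 ± 0.47 between aged control and young livers (edgeR adjusted p = 0.156). With 1 library left out March1 passed in 1 of 8 fits for PAM I and 2 of 8 for PAM II, H2-Oa and Ctsb in 3 of 8 and Ctsd in 4 of 8 for PAM I, and H2-M2 in 8 of 8 for PAM I and 3 of 8 for aged controls. With the leukocyte covariate, which was not independent of age group, H2-Oa, March1, Ctsd, Ctsb and H2-M2 did not pass. H2-Ea-ps, the annotated pseudogene of the alpha chain that would pair with H2-Eb1, had 0 fragments in all 16 livers, which allows up to 0.0811 CPM in the shallowest library (3 counts, counting error only).

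None of 9 transactivator genes passed in any comparison, where at most 8.22% of all genes did, so a count of 0 is near the background. Nlrc5, the class I counterpart of Ciita, had 0.47 ± 0.26 between aged control and young livers (edgeR adjusted p = 0.341). Irf8 (0.84 ± 0.42, edgeR adjusted p = 0.293) and Socs1 (0.67 ± 0.41, edgeR adjusted p = 0.397) were first by p in the interferon-gamma list, where 0 of 9 tested genes passed, likewise near the background. Ifng itself fell under the filter, with 0 to 0.121 CPM over the 16 livers. Cd86, a costimulatory ligand of antigen-presenting cells, had 1.5 ± 0.59 (edgeR adjusted p = 0.181), and Cd274, the ligand PD-L1, had 0.75 ± 0.42 (edgeR adjusted p = 0.35).

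Genes nearest to H2-D1 and H2-Aa in pattern were found by the root mean square difference of log2 CPM centred on each gene's mean over the 16 livers, among 11092 genes. For H2-D1 the 5 nearest were Vrk2 (0.108), Trim30a (0.134), Cap1 (0.139), Tnip1 (0.144) and Ppt1 (0.149), all nearer than H2-K1 at 0.227. The nearest to H2-Aa outside the 10 were H2-DMb1 (0.272), Slamf8 (0.275), H2-DMa (0.294), Traf1 (0.299) and Gbp2 (0.336). H2-DMa and H2-DMb1 encode the molecule that exchanges the invariant chain fragment for peptide. Within the 10, H2-Eb1 (0.100), Cd74 (0.150) and H2-Ab1 (0.215) were nearer to H2-Aa than any other gene, and Ciita stood at 0.407. A gene of small variance lies near any other of small variance by this measure, which describes these 16 livers only.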

How the data were processed

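Liver samples (16, in 4 groups of 4) were measured by RNA sequencing. Per the file headers, the authors deposited raw fragment counts per gene from featureCounts, 1 library per file, with the Ensembl release 99 annotation and strand setting 1. The submitters' processing notes name Trimmomatic 0.38, HISAT2 2.1.0, featureCounts 1.5.0-p2 and build mm10. Symbols came from GENCODE M21 (55144 of 55471 identifiers). Counts were tested in R 4.3.3 with edgeR 4.0.16: filterByExpr, TMM, 1 robust quasi-likelihood model of all 16 libraries, two-sided F tests and Benjamini-Hochberg adjustment over 17046 genes, with a threshold of 0.05. The biological coefficient of variation was 27.3%. CPM are TMM-scaled, TPM used the exon lengths of the files, and ± is the SE of a log2 fold change or the SD over livers. DESeq2 1.42.0, limma 3.58.1 (voom with quality weights), other scalings and filters, covariates and leaving out libraries were tried. The procedure was run on counts simulated from the fitted model, with no libraries that stood apart. That run does not bear on results that turn on single livers. Counting limits cover counting error only.

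Members and lists were chosen with earlier results of these data known. Named were the 10 members in every comparison, genes of each pathway list that passed (at most 4 by p), the first 2 by p between aged controls and young, marker genes by the same limit, and the 5 genes nearest to H2-D1 and H2-Aa. Promoters came from RefSeq (GRCm38.p6).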

Additional observations from a re-analysis of the deposited data

Results flagged for a closer look

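In 40 groups of 4 livers (10 genes in 4 groups), the highest or lowest liver was compared with the spread of the other 3 by Dixon's ratio (gap over range), whose critical value chance exceeds in about 1 of 20 groups. H2-D1 was lowest in PAM I replicate 1, at 641 CPM (ratio 0.906), where the other 3 had 801.8 to 818.5. B2m was highest in young replicate 1, at 2325 CPM (ratio 0.855), where the other 3 had 1759 to 1842, in the library with the lowest quality weight. Tap1 was highest in aged control replicate 4, at 67.7 CPM (ratio 0.948), where the other 3 had 31.3 to 33.2. Ciita was highest in young replicate 3, at 3.79 CPM (ratio 0.835), where the other 3 had 1.05 to 1.498.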

How the results depend on the processing

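No paired analysis was possible because the labels give no pairing. The replicate numbers used here count samples within a group, and nothing says that equal numbers share a litter, cage or batch. Genes that passed numbered 1401 for PAM I against young (824 higher, 577 lower), 884 for PAM II against young (541 higher, 343 lower) and 551 for aged control against young (327 higher, 224 lower). Upper-quartile scaling gave 1045 higher and 419 lower, 640 and 275, and 357 and 169, each with as many members passing as before. DESeq2 passed 2629, 1860 and 1343 genes. limma passed 2627 for PAM I and 1552 for PAM II. Without the filter 896 passed for PAM I. The muscle covariate gave 295 for aged controls, the fit of the 2 groups alone 198, and the fit without aged control replicate 4 and young replicate 1 gave 153. The leukocyte covariate gave 383 for PAM I. For PAM I against aged controls DESeq2 passed 15 genes. Leaving out 1 library gave 532 to 1486 genes for PAM I, 370 to 934 for PAM II and 208 to 587 for aged controls, each against young.

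Members that passed, 4 for PAM I, 1 for PAM II and 1 for aged controls against young, numbered 0 in each with the leukocyte covariate or without a filter. For aged controls the count was 6 with DESeq2 and 0 with the muscle covariate, with limma, with the 2 groups alone and without aged control replicate 4 and young replicate 1. For PAM II it was 2 with limma and 0 with the 2 groups alone or without those 2 libraries. Leaving out 1 library gave 0 to 5 for PAM I, 0 to 1 for PAM II and 0 to 4 for aged controls. Further pathway genes, 6, 2 and 2, numbered 2 to 8, 1 to 2 and 0 to 2 with 1 library left out. For PAM I they were 13 with DESeq2, 11 with the 2 groups alone or without the 2 libraries, 10 with limma and 1 with the leukocyte covariate. For PAM II they were 8 with DESeq2, 7 with the muscle covariate, 5 with limma and 1 without the 2 libraries. For aged controls they were 1 with limma or either covariate, and 0 with the 2 groups alone or without the 2 libraries. The cause was not tested.

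Signs turned only for members that had not passed. With the leukocyte covariate the log2 fold changes for PAM I against aged controls were -0.031 (Cd74), -0.05 (H2-Aa), -0.035 (H2-Ab1), -0.076 (H2-Eb1) and -0.088 (Psmb8), for PAM I against young -0.264 (Psmb8) and -0.378 (Tap1), for PAM II against young -0.335 (Cd74), -0.233 (H2-Aa), -0.147 (H2-Ab1), -0.068 (H2-Eb1) and -0.456 (Psmb8), for aged control against young -0.175 (Psmb8) and -0.289 (Tap1), and for PAM II against PAM I 0.044 (H2-D1) and 0.008 (H2-K1). With the muscle covariate they were 0.054 (H2-D1) and 0.065 (Tap1) for PAM I against aged controls, 0.031 (H2-Ab1), 0.109 (H2-D1), -0.013 (H2-K1) and 0.005 (Tap1) for PAM II against aged controls, 0.054 (H2-D1) for PAM II against PAM I and 0.028 (Tap1) for PAM II against young. Without aged control replicate 4 and young replicate 1 they were 0.095 (B2m), 0.051 (Ciita), 0.087 (H2-D1) and 0.332 (Tap1) for PAM I against aged controls, 0.022 (H2-Ab1), 0.081 (H2-D1) and 0.194 (Tap1) for PAM II against aged controls, 0.089 (B2m) for PAM II against young and -0.275 (Tap1) for aged control against young. With limma they were 0.037 (B2m), 0.026 (Ciita), 0.058 (H2-D1) and 0.187 (Tap1) for PAM I against aged controls, 0.018 (H2-K1) for PAM II against PAM I, 0.021 (H2-Ab1), 0.033 (H2-D1) and 0.158 (Tap1) for PAM II against aged controls, 0.132 (B2m) and 0.063 (Tap1) for PAM II against young and -0.095 (Tap1) for aged control against young. Without a filter they were 0.001 (H2-D1, PAM II against PAM I), 0.011 (B2m) and 0.005 (Tap1, both PAM II against young), with the stricter filter 0.0 (H2-D1, PAM II against PAM I), and with upper-quartile scaling 0.04 (B2m) and 0.039 (Tap1), both for PAM II against young.

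With 1 library left out, ranges that crossed 0 were, for PAM I against aged controls, -0.143 to 0.095 (B2m), -0.173 to 0.809 (Cd74), -0.724 to 0.052 (Ciita), -0.204 to 0.826 (H2-Aa), -0.231 to 0.672 (H2-Ab1), -0.12 to 0.087 (H2-D1), -0.265 to 0.768 (H2-Eb1), -0.038 to 0.137 (H2-K1), -0.128 to 0.348 (Psmb8), -0.13 to 0.332 (Tap1) and -0.124 to 0.071 (ratio of class II to leukocyte sum). For PAM II against aged controls they were -0.757 to 0.022 (H2-Ab1), -0.127 to 0.081 (H2-D1), -0.051 to 0.125 (H2-K1), -0.268 to 0.194 (Tap1) and -0.131 to 0.005 (ratio of H2-D1 to H2-K1). For PAM II against PAM I they were -0.085 to 0.025 (H2-D1), -0.049 to 0.05 (H2-K1) and -0.073 to 0.067 (ratio of H2-D1 to H2-K1). Against young they were -0.083 to 0.082 (B2m), -0.114 to 0.136 (Tap1) and -0.395 to 0.044 (ratio of class II to leukocyte sum) for PAM II, and -0.001 to 0.237 (B2m) and -0.209 to 0.295 (Tap1) for aged controls.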
